A study of Mus musculus with 7 samples.

Results

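The 8 genes described here, Cpt1a, Acadm, Ehhadh, Cyp4a10, Cyp4a14, Pdk4, Fgf21 and Angptl4, are genes of fatty acid oxidation and of the response to fasting, and they were chosen by name. Hotspots, stretches of the genome where nuclease cuts cluster above background, were taken for each gene from the transcribed part and 20 kb to either side. These windows held 60 of the 60910 Benzonase hotspots of mouse liver, 57 of 57675 Cyanase hotspots and 52 of 72286 DNase I hotspots, 169 in all. Joined wherever they overlapped by at least 1 bp, they made 72 regions of the 94491 in the genome, and 1 of these regions lay in the windows of both Cyp4a10 and Cyp4a14. All positions are on mm9 and count from 1.

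The series maps accessible chromatin in the liver of male C57BL/6 mice aged 8 weeks, which had food at all times, so that no fasted group is compared. Benzonase and Cyanase, endonucleases that keep working in detergent, were each applied at 0.25, 1 and 4 U to pulverized frozen tissue, and DNase I was applied to nuclei purified from fresh tissue. The authors pooled the tags of each nuclease before calling hotspots, which left 1 list of hotspot positions per nuclease, without tag numbers. There is therefore no spread between replicates and no test in what follows, the depth behind a hotspot is unknown, the absence of a hotspot says only that none was called, and nuclease and preparation cannot be told apart.

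Fatty acids are broken down in liver mitochondria after the carnitine shuttle has carried them across the inner membrane, in peroxisomes, and by omega oxidation in the endoplasmic reticulum. In fasting, fatty acids from adipose tissue activate the nuclear receptor PPAR alpha, which binds with RXR to DR1 elements, direct repeats with a single base between the copies, and induces many genes of these routes. The same response reaches other tissues through proteins that the liver secretes, and it spares glucose by slowing the entry of pyruvate into the citric acid cycle.

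The windows were dense in hotspots of all 3 nucleases. The median over the 8 genes was 1.32 Benzonase, 1.20 Cyanase and 1.09 DNase I hotspots per 10 kb of window, and the median over the same windows of all 22365 genes with protein-coding transcripts was 0.383, 0.361 and 0.424. The latter takes in genes that are silent in liver, and no set of genes of like expression was compared. Of the 72 regions, 40 (55.6%, 95% Wilson interval 44.1 to 66.5, which covers counting error only) were common, meaning that DNase I and at least 1 of the other nucleases had a hotspot there, against 45.4% of all regions of the genome. DNase I alone marked 9 regions (12.5%, interval 6.72 to 22.1, genome 28.3%), and Benzonase or Cyanase without DNase I marked 23 (31.9%, interval 22.3 to 43.4, genome 26.3%). Where hotspots were joined only if at least 50% of both overlapped, DNase I alone marked 15 of 82 regions (18.3%, genome 31.5%). All 3 nucleases were present in 34 regions (47.2%, interval 36.1 to 58.6, genome 40.0%), and Benzonase with Cyanase but without DNase I in 17 (23.6%, interval 15.3 to 34.6, genome 10.2%). Several of these 17 lay in the windows of Cyp4a10 and Cyp4a14, where part of the sequence is repeated. Without both windows, 15 of 60 regions (25%) were of the wider class of Benzonase or Cyanase without DNase I (genome 26.3%). Where at least 90% of the 32-base words of a region occur only once in the genome, 16 of 62 (25.8%) were of that wider class. The regions of both Benzonase and Cyanase without DNase I were not counted again under these limits. A hotspot of another nuclease overlapped 57 of the 60 Benzonase hotspots (95%, genome 85.6%), 54 of the 57 Cyanase hotspots (94.7%, genome 88.9%) and 43 of the 52 DNase I hotspots (82.7%, genome 63.0%). The share of DNase I hotspots that stood alone was thus smaller near these genes than in the genome as a whole. The genome shares take in all regions, near genes or not, and were not taken over the windows of other genes.

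**Figure D1:**
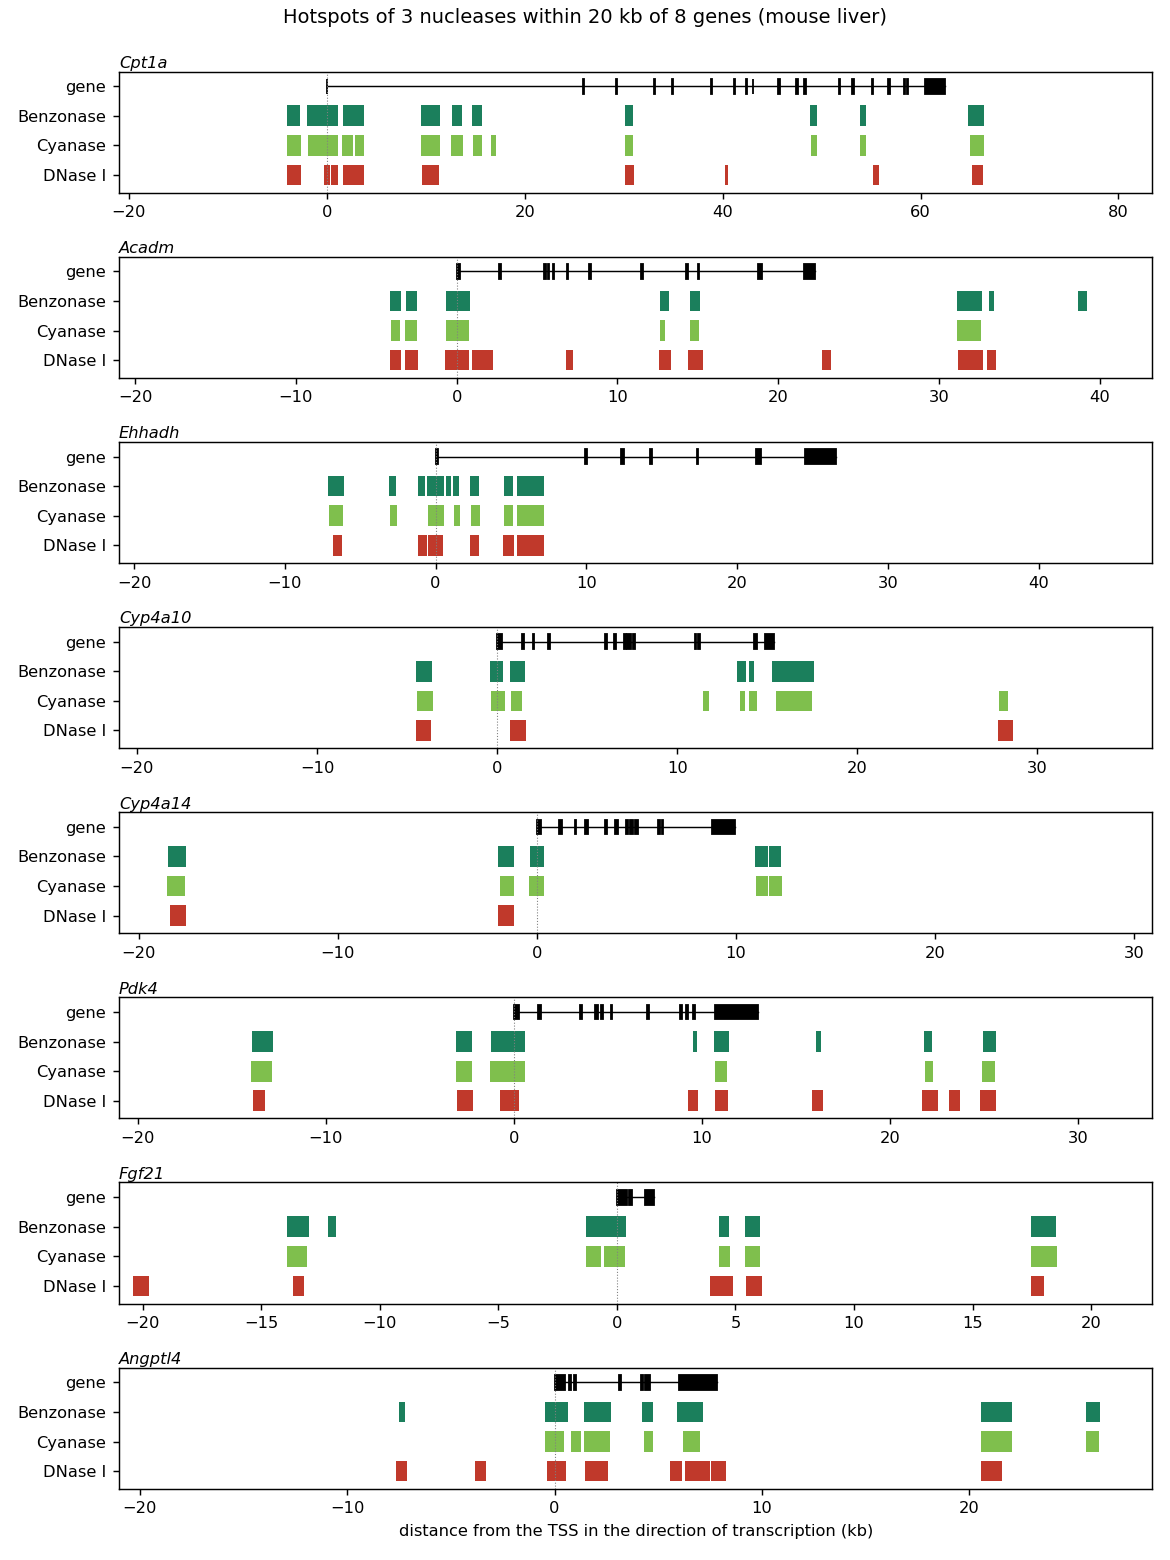
Hotspots of the 3 nucleases along each gene, with distance from the transcription start site (TSS) in kb in the direction of transcription on the horizontal axis, which differs in length between panels. Black boxes are exons and coloured boxes are hotspots. DNase I boxes are missing at the TSS of Fgf21, Cyp4a10 and Cyp4a14 and present at the other 5.

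The balance of the nucleases differed from gene to gene. Pdk4 had 8 common regions of 9 and none without DNase I, whereas Cyp4a10 had 3 common regions of 8 and 5 without DNase I. Acadm had the most regions of DNase I alone, 3 of 11, and Ehhadh, Cyp4a10 and Cyp4a14 had none. Cpt1a, which has the longest window, had 13 regions, of which 6 were common, 5 lacked DNase I and 2 were DNase I alone.

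**Figure D2:**
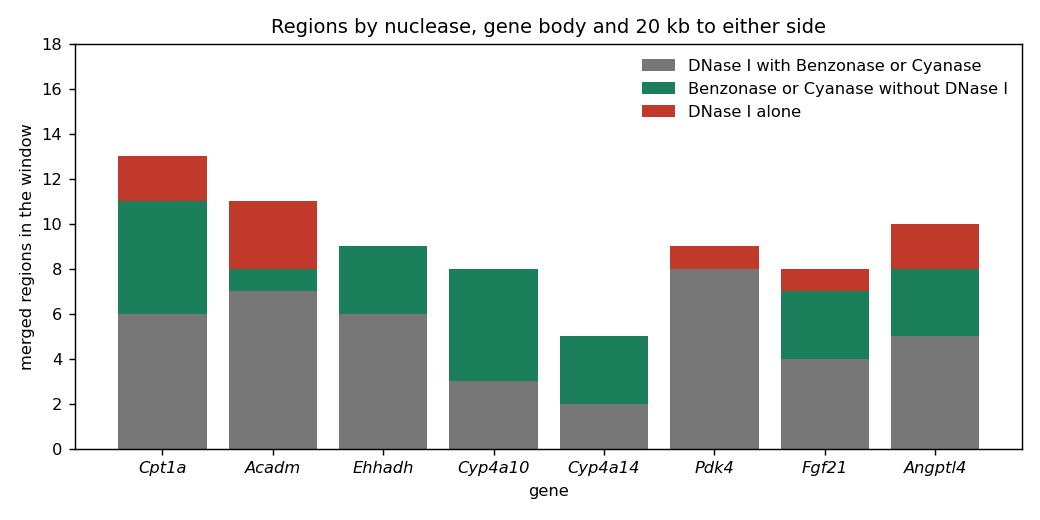
Number of merged regions in the window of each gene, stacked by the nucleases that marked them, in windows of different length. The bars run from 5 regions at Cyp4a14 to 13 at Cpt1a, and the DNase I alone part is absent at Ehhadh, Cyp4a10 and Cyp4a14.

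Cpt1a (ENSMUSG00000024900.4, chr19:3323301-3385732, plus strand, 19 exons) encodes the outer membrane enzyme that joins fatty acids to carnitine, the step at which entry into mitochondria is controlled. A Benzonase hotspot of 3063 bp covered the TSS from 3321350 to 3324412. Cyanase marked the same stretch with hotspots at 3321375 to 3322855 and 3322863 to 3324470, and DNase I with narrower ones at 3322978 to 3323608 and 3323708 to 3324439. The upstream end of the stretch, up to 1951 bp before the TSS, was therefore in the Benzonase and Cyanase lists and not in the DNase I list. Intron 1 held 5 further regions. The closest to the TSS, with 2177 bp of Benzonase and 2181 bp of DNase I, and the next, 9542 to 11432 bp after the TSS, were marked by all 3 nucleases, the following 2 by Benzonase and Cyanase, and the last by Cyanase alone. Further in, intron 3 held a region of all 3 nucleases (868, 853 and 938 bp for Benzonase, Cyanase and DNase I), introns 12 and 14 each held a region of Benzonase and Cyanase, and introns 6 and 15 each held a hotspot of DNase I alone, of 325 and 614 bp. In the intron 12 region 29.2% of the 32-base words occur only once in the genome, and the placing of short tags there was not tested. GC content ran from 54.8 to 61.1% in the 4 intronic regions marked by Benzonase and Cyanase and was 49.5 and 48.0% in the 2 of DNase I alone.

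Acadm (ENSMUSG00000062908.6, chr3:153585321-153607596, minus strand, 12 exons) encodes medium-chain acyl-CoA dehydrogenase, which carries out the first step of each round of mitochondrial beta oxidation. The hotspots at its TSS had nearly the same extent in all lists, 1534 bp for Benzonase (153606748 to 153608281), 1422 bp for Cyanase (153606852 to 153608273) and 1482 bp for DNase I (153606844 to 153608325). Upstream, a pair of regions within 4119 bp of the TSS also had a hotspot of each nuclease. DNase I alone had further hotspots in intron 1 (1305 bp), across exon 6 (455 bp) and just past the 3′ end of the gene (542 bp). In intron 8 the DNase I hotspot was the widest, with 739 bp against 551 bp for Benzonase and 328 bp for Cyanase, and across exons 9 and 10 it was again the widest, with 931, 664 and 589 bp. DNase I thus covered 14.4% of this window, Benzonase 10.4% and Cyanase 8.29%.

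Ehhadh (ENSMUSG00000022853.6, chr16:21761360-21787917, minus strand, 7 exons) encodes the bifunctional enzyme of peroxisomal beta oxidation. Its 9 regions all lay between 7099 bp before and 7225 bp after the TSS, and none lay in the 3′ part of the gene or downstream. The TSS hotspots were 1102 bp wide with Benzonase, 1047 bp with Cyanase and 1006 bp with DNase I. In intron 1, the region farthest from the TSS was wide in every list, with 1839, 1756 and 1763 bp, and 2 narrower regions between it and the TSS had hotspots of 618 to 727 bp in all lists. Regions nearer the TSS differed. Benzonase alone marked 314 bp of intron 1, Benzonase and Cyanase marked 402 and 423 bp next to it, and just upstream of the TSS hotspot Benzonase (429 bp) and DNase I (598 bp) had hotspots where Cyanase had none. The region farthest upstream, in the neighbouring gene 1300002E11Rik, measured 1008 bp with Benzonase, 970 bp with Cyanase and 633 bp with DNase I.

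Cyp4a10 (ENSMUSG00000066072.6, chr4:115190869-115206254, plus strand, 13 exons) and Cyp4a14 (ENSMUSG00000028715.2, chr4:115158805-115168747, minus strand, 12 exons) are neighbouring genes for cytochrome P450 enzymes of omega oxidation, and both are textbook targets of PPAR alpha. Their TSSs were marked by Benzonase and Cyanase and not by DNase I. At Cyp4a10 the Benzonase hotspot ran from 115190497 to 115191215 (719 bp) and the Cyanase hotspot from 115190514 to 115191312 (799 bp), and at Cyp4a14 they ran from 115168376 to 115169084 (709 bp) and from 115168407 to 115169114 (708 bp). The 250 bases before each TSS are shown, because they lie in these hotspots and in no DNase I hotspot. The strand is that of the gene, and capitals mark a CCAAT box (ATTGG when it lies on the opposite strand) and, in Cyp4a14, the forkhead motif TGTTTAC.
Cyp4a10, chr4:115190619-115190868, plus strand: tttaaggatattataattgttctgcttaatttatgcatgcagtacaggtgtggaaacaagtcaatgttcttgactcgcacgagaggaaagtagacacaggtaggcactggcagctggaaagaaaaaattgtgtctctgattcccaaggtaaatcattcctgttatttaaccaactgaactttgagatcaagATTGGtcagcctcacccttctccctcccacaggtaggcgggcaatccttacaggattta
Cyp4a14, chr4:115168748-115168997, minus strand: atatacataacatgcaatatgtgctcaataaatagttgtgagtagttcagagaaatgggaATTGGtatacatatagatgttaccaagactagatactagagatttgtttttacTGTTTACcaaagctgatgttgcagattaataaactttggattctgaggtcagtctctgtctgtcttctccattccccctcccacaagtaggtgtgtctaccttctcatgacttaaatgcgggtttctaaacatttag
The GC content of these stretches was 42% and 36.4%. All 3 nucleases marked a region nearby in both genes. In Cyp4a10 it covered exon 2, with a DNase I hotspot of 894 bp that began 699 bp after the TSS, or 665 bp from the closest of the 3 annotated TSSs, beside a Benzonase hotspot of 803 bp and a Cyanase hotspot of 647 bp. In Cyp4a14 it lay upstream, with 795 bp of DNase I ending 1134 bp before the TSS, 765 bp of Benzonase and 720 bp of Cyanase. The region between the genes, chr4:115186370-115187317, was marked by all 3 nucleases with 894, 884 and 812 bp for Benzonase, Cyanase and DNase I. The 3′ end of Cyp4a10 carried hotspots of Benzonase (2304 bp) and Cyanase (2028 bp) and none of DNase I, and 2 regions downstream of Cyp4a14 were likewise marked by Benzonase and Cyanase alone.

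Genes of the Cyp4a family resemble each other, and a tag from a sequence with several copies may be left out or placed wrongly. Of the 32-base words within 500 bp of the TSS, 65.6% occur only once in the genome at Cyp4a10 and 100% at Cyp4a14, and over the whole windows the shares were 60.7% and 70.3%. The other 6 genes had 96.5 to 100% around the TSS. The part that this played in the missing DNase I hotspots was not tested at either gene. Without the windows of Cyp4a10 and Cyp4a14, the regions without DNase I numbered 15 of 60 (25%) instead of 23 of 72.

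Pdk4 (ENSMUSG00000019577.4, chr6:5433351-5446309, minus strand, 11 exons) encodes a kinase that switches off pyruvate dehydrogenase and so spares glucose. Its TSS hotspots differed in extent. Benzonase covered 1795 bp (5445732 to 5447526) and Cyanase 1844 bp (5445726 to 5447569), and DNase I covered 1013 bp within them (5446028 to 5447040). The region farthest upstream showed the same order, with 1106, 1128 and 617 bp, and the region 2187 to 3094 bp before the TSS had almost equal widths of 837, 862 and 846 bp. Downstream of the gene the order turned around. A region 21727 to 22548 bp after the TSS measured 445 bp with Benzonase, 447 bp with Cyanase and 822 bp with DNase I, and the last region measured 715, 707 and 892 bp. DNase I and Benzonase without Cyanase marked a region across exons 9 and 10 and another downstream, and at both the Benzonase hotspot was 251 bp wide, the narrowest width in any list. In the downstream region 11.5% of the 32-base words were unique.

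Fgf21 (ENSMUSG00000030827.4, chr7:52869277-52870860, minus strand, 3 exons) encodes a hormone that the liver secretes in fasting. Benzonase marked its TSS from 52870489 to 52871499 (1011 bp) and Cyanase from 52870536 to 52871394 (859 bp), and another hotspot of each lay directly upstream, at 52871507 to 52872175 and 52871512 to 52872182. The DNase I hotspot closest to the TSS was 3936 bp away, downstream of the gene. The 250 bases before the TSS are shown because only Benzonase and Cyanase marked them. On the strand of the gene, capitals mark GC boxes (GGGCGG, or CCGCCC when on the opposite strand), the sequence TTGCATCA, a form of the element that C/EBP and ATF proteins bind, 139 to 132 bases before the TSS, and the E-box CACGTG 50 to 45 bases before it, which shares a base with a GC box.
Fgf21, chr7:52870861-52871110, minus strand: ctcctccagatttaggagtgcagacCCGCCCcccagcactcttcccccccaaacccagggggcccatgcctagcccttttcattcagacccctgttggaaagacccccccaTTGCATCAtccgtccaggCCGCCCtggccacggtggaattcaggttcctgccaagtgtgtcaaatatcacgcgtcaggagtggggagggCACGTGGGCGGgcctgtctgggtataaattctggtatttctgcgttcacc
The GC content of this stretch was 59.6%, and 99.4% of the 32-base words within 500 bp of the TSS were unique. Downstream, 3 regions were marked by all 3 nucleases. The nearest measured 451 bp with Benzonase, 475 bp with Cyanase and 979 bp with DNase I, and the next 629, 628 and 673 bp. The farthest, 17443 to 18541 bp after the TSS, measured 1058, 1089 and 567 bp, and a region upstream over the genes Izumo1 and Rasip1 measured 928, 877 and 454 bp. The surroundings of Fgf21 thus held the widest and the narrowest DNase I hotspots relative to Benzonase among the regions compared.

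Angptl4 (ENSMUSG00000002289.9, chr17:33910695-33918520, minus strand, 7 exons) encodes a secreted inhibitor of lipoprotein lipase. Its TSS hotspots were 1096 bp wide with Benzonase, 921 bp with Cyanase and 898 bp with DNase I, and a region in intron 3 measured 1256, 1248 and 1127 bp. Parts of the last exon and of the intron before it lay in a region of 1951 bp where the lists drew different bounds. Benzonase covered 33911353 to 33912597, Cyanase 33911500 to 33912308, and DNase I had hotspots at 33911026 to 33912249 and 33912380 to 33912976. A further DNase I hotspot of 722 bp lay over the 3′ end of the gene with no partner. Benzonase and Cyanase without DNase I marked exons 5 and 6, and Cyanase alone marked 493 bp across exon 3. Short stretches are shown for sites that resemble a DR1 element (AGGTCA, 1 base, AGGTCA) or a glucocorticoid response element (AGAACA, 3 bases, TGTTCT). They are both DR1 sites with 1 mismatch, the DR1 site of the intron 3 region with 2, and the glucocorticoid response element with 0. Not shown are 2 more DR1 sites with 2 mismatches near the 3′ end of the gene, in DNase I hotspots alone. DR1 sites with 2 mismatches also occurred in regions of each of the other genes and are not shown. Of genome regions as wide as the intron 3 region, 22.9% held a DR1 match with at most 2 mismatches. For the region of the last exon the share was 27.2%, and 10.8% for a glucocorticoid response element with at most 2. The genome share of the latter with 0 mismatches is not given here. Each stretch shown is given with the site in capitals and the strand on which it is read.
Angptl4 intron 3, DR1 with 2 mismatches, chr17:33916234-33916262, plus strand: gggaaagtAGGAGAAAGGTCActggggga
Angptl4 intron 6, DR1 with 1 mismatch, chr17:33912712-33912740, plus strand: gggtatgaAGGTCAGAGGACAgcttgtgg
Angptl4 exon 7, 3′ UTR, DR1 with 1 mismatch, chr17:33911341-33911369, minus strand: cacccaaaAGGTCAAAGGACAgaacagat
Angptl4 exon 7, 3′ UTR, glucocorticoid response element with 0 mismatches, chr17:33911829-33911857, plus strand: acaacagAGAACAAAATGTTCTgaggttg
The intron 3 site and the glucocorticoid response element lay in hotspots of all 3 nucleases. Both DR1 sites with 1 mismatch lay inside DNase I hotspots. The intron 6 site lay outside the Benzonase and Cyanase hotspots, and the exon 7 site lay across the Benzonase bound at 33911353 and outside the Cyanase hotspot.

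**Figure D3:**
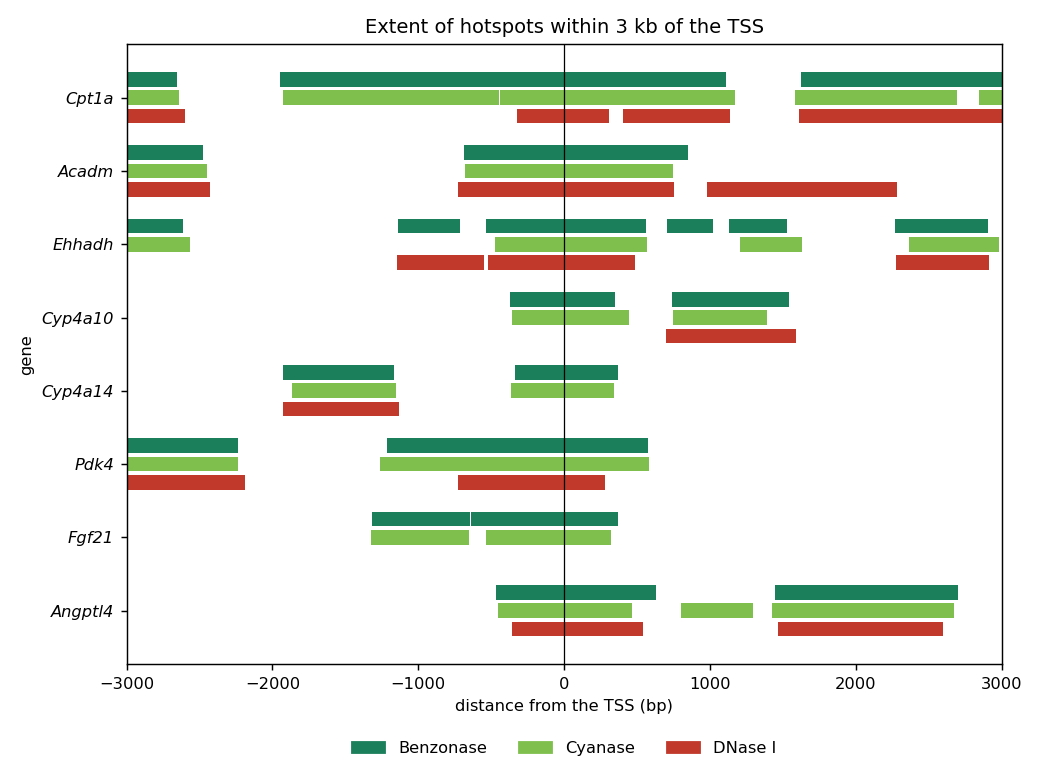
Extent of the hotspots within 3 kb of the TSS of each gene, in bp from the TSS in the direction of transcription, with bars cut at the edges of the plot. The Benzonase and Cyanase bars cross the TSS at all 8 genes and the DNase I bars at 5, and at Pdk4 and Cpt1a the DNase I bar is shorter on the upstream side.

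At the TSS, Benzonase and Cyanase each marked 8 of the 8 genes, against 57.4% and 55.7% of all genes, and DNase I marked 5, against 47.4%. All genes include 40.9% whose TSS no nuclease marked, and expression was not matched. The paper reports Benzonase and Cyanase hotspots at the TSS of most active genes and of far fewer inactive ones. These shares can therefore not be read as particular to the pathway, and the activity of the 8 genes was not examined. A TSS inside hotspots of Benzonase and Cyanase and outside those of DNase I was found at 3 of the 8 genes, Fgf21, Cyp4a10 and Cyp4a14, against 8.81% of all genes and 16.1% of those marked by Benzonase and Cyanase. With 8 genes these counts are small, and no test was made. Within 500 bp of the TSS, GC content was 43.6% at Cyp4a10, 40.9% at Cyp4a14 and 59.4% at Fgf21, and 53.9 to 61.3% at the 5 genes that all 3 nucleases marked. Over all genes the median was 58.7% (quartiles 54.2 and 63.6) where all 3 nucleases marked the TSS and 61.4% (quartiles 56.4 and 66.6) where Benzonase and Cyanase did without DNase I. Both Cyp4a genes therefore lay below the lower quartile of the latter group, and Fgf21 within its quartiles.

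Most other genes of the pathway were marked by all nucleases. In a list of 51, Benzonase marked the TSS of 44 (86.3%), Cyanase of 46 (90.2%) and DNase I of 49 (96.1%). The list takes in 4 other Cyp4a genes, of which Benzonase and Cyanase each marked 1 and DNase I all 4, and these weigh on the difference. Against 46.1% of all genes, which were not matched for expression, 43 of the 51 were marked by all 3. These included Ppara, which encodes PPAR alpha itself, and every listed gene of mitochondrial beta oxidation (14), peroxisomal oxidation (7) and the carnitine shuttle (3). Acsl5, an acyl-CoA synthetase gene, was the only one of the 51 with Benzonase and Cyanase and without DNase I, whose nearest hotspot lay 1107 bp from a TSS. Cd36 and Slc27a2, genes of fatty acid uptake, lacked Benzonase, by 50 bp at Slc27a2 and by 7063 bp at Cd36. DNase I alone marked Vnn1, a PPAR alpha target that encodes pantetheinase, where a Benzonase hotspot lay 29 bp from the TSS. Creb3l3, which encodes a transcription factor that acts with PPAR alpha, was marked by none, and its nearest hotspots lay 4192 to 4218 bp away.

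At 3 of the 4 other Cyp4a genes the pattern was the reverse of that at Cyp4a10 and Cyp4a14. DNase I marked the TSS of all 4, Cyp4a32 together with Benzonase and Cyanase, and Cyp4a12a, Cyp4a12b and Cyp4a31 alone. The nearest Benzonase hotspot lay 13383 bp from the TSS at Cyp4a12a, 72234 bp at Cyp4a12b and 727 bp at Cyp4a31, and the nearest Cyanase hotspot 13284, 72173 and 698 bp. Within 500 bp of the TSS, 27.0% of the 32-base words were unique at Cyp4a12a, 26.1% at Cyp4a12b, 82.3% at Cyp4a31 and 65.4% at Cyp4a32. How the tags of each nuclease were placed in repeated sequence is not given in the sources used here, and the part of repeated sequence in these differences was not tested.

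**Figure D4:**
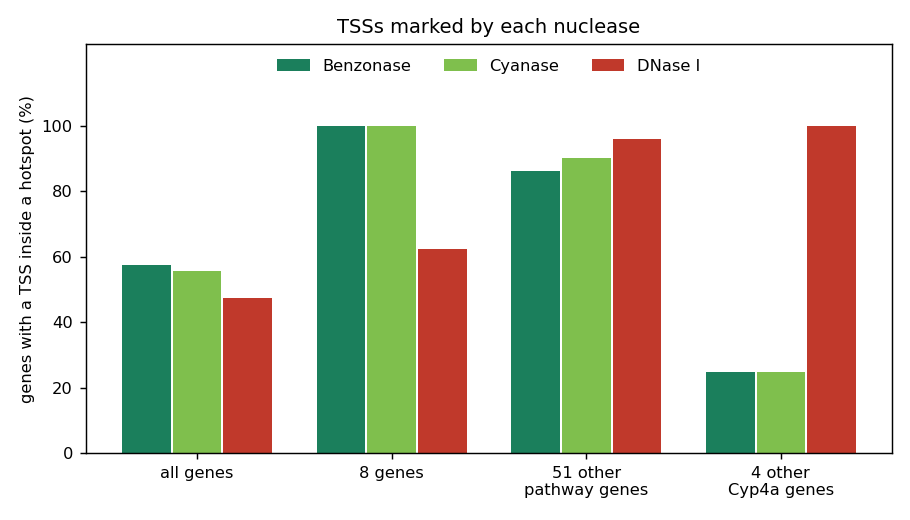
Share of genes, in percent, with a TSS inside a hotspot of each nuclease, for all 22365 genes, the 8 genes, the list of 51 other pathway genes and the 4 other Cyp4a genes within that list. The DNase I bar is the lowest of the 3 for all genes (47.4%) and for the 8 genes (62.5%), and the highest for the pathway list (96.1%) and the other Cyp4a genes (100%).

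Liver is a mixture of cells, and which of them gave a hotspot cannot be read from these lists. All 5 hepatocyte markers examined (Alb, Apoa1, Ttr, Serpina1a and Cyp2e1) had a TSS marked by every nuclease. Of 4 Kupffer cell markers DNase I marked 4, and Benzonase and Cyanase 1 each. Of 3 markers of sinusoidal endothelium Benzonase and Cyanase marked 2 and DNase I 0, and of 3 of stellate cells they marked 2, 3 and 0 for Benzonase, Cyanase and DNase I. Of 3 bile duct markers they marked 2, 1 and 1, and of 4 markers of muscle and brain 0, 1 and 0. Among the markers of endothelium, the nearest DNase I hotspot lay 3 bp from a TSS at Kdr, 1732 bp at Clec4g and 3967 bp at Stab2. The part of the cell types in the differences at Fgf21, Cyp4a10 and Cyp4a14 was not tested.

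Hotspots near the 8 genes were somewhat wider than those of the whole lists. The median was 717 bp for Benzonase (95% interval from order statistics 646 to 928, genome 652), 734 bp for Cyanase (647 to 884, genome 641) and 735.5 bp for DNase I (643 to 892, genome 649), so that the genome value lay just inside the interval for Benzonase and DNase I and just outside it for Cyanase. In the 30 regions that held exactly 1 hotspot of each nuclease the medians were 881, 869.5 and 869 bp, and in the 33922 such regions of the genome 761, 720 and 746 bp. The bounds drawn by Benzonase and Cyanase lay close together. Over the 60 bounds of these regions they differed by a median of 27 bp (interval 17 to 43, genome 33), whereas Benzonase and DNase I differed by 65 bp (46 to 91, genome 71) and Cyanase and DNase I by 66.5 bp (48 to 99, genome 70). Bounds within 100 bp of each other numbered 55 of 60 for Benzonase and Cyanase (91.7%, genome 85.8%), 41 for Benzonase and DNase I (68.3%, genome 62.0%) and 39 for Cyanase and DNase I (65%, genome 62.9%). The overlap of both hotspots as a share of the stretch they covered together had medians of 93.2%, 87.1% and 84.5% for these pairs, and of 90.6%, 79.7% and 79.8% in the genome.

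DNase I gave the widest hotspot in 12 of the 30 regions, the narrowest in 12 and the middle width in 6, close to the 43.1% widest and 42.6% narrowest of the genome. The ratio of DNase I to Benzonase width fell with GC content across the 30 regions (Spearman's rho -0.64, genome -0.67 over 33922 regions). This is a description across regions that share the same lists, and the GC content was taken over the merged region whose bounds the hotspots set. The median GC content was 43.3% where DNase I was widest and 52.2% where it was narrowest, and in the genome 45.3% and 54.2%. The highest ratios were 2.17 at the nearest region downstream of Fgf21 (GC content 42.7%) and 1.85 downstream of Pdk4 (38.9%). The lowest were 0.489 upstream of Fgf21 (70.0%), 0.536 at the last region downstream of Fgf21 (50.1%), 0.558 upstream of Pdk4 (43.5%) and 0.564 at the Pdk4 TSS (51.8%), so that regions of low ratio were not all rich in GC. The central 150 bases are shown, with CpG dinucleotides in capitals, for the region of highest ratio and for that of the next to lowest, both downstream of Fgf21. The region of lowest ratio is left out because its centre lies in an exon of Rasip1.
Downstream of Fgf21, ratio 0.536, chr7:52852793-52852942, plus strand: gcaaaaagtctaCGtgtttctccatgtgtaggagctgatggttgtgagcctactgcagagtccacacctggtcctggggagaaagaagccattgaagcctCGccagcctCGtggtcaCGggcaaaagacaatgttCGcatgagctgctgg
Downstream of Fgf21, ratio 2.17, chr7:52866360-52866509, plus strand: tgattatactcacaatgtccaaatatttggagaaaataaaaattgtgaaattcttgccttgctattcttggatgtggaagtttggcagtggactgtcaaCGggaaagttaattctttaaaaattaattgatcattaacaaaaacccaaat
The former held 5 CpG dinucleotides at a GC content of 54%, and the latter 1 at 30.7%.

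**Figure D5:**
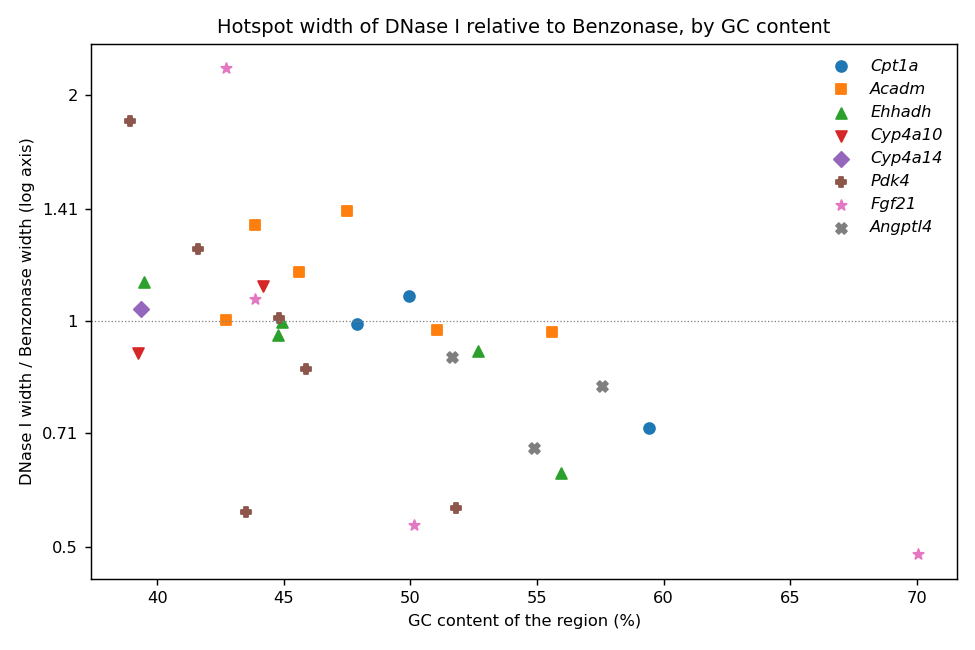
Width of the DNase I hotspot divided by that of the Benzonase hotspot (log axis) against GC content in percent for the 30 regions with exactly 1 hotspot of each nuclease, with a symbol for each gene. The ratios run from 0.489 to 2.17 and fall with GC content (rho -0.64), and the Pdk4 and Fgf21 points lie at both ends.

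Across the 72 regions, GC content had a median of 45.8% in common regions (interval 44.6 to 50.1, n = 40), 44.6% in those of DNase I alone (41.1 to 49.0, n = 9) and 51.2% in those without DNase I (44.7 to 56.0, n = 23). The intervals overlap. In the genome the medians were 48.8, 42.3 and 54.3%. By position, 20 regions lay in introns, of which 9 lacked DNase I and 3 were DNase I alone, and 11 touched other exons, 8 covered the TSS, 3 lay in the 2 kb before it, 12 farther upstream and 14 downstream. The remaining 4 covered the TSS of a neighbouring gene, Mtl5 near Cpt1a, Rabggtb near Acadm, Rasip1 near Fgf21 and Rab11b near Angptl4, and the lists do not tell to which gene they belong. Another 3 genes, Msh4 near Acadm and Fut1 and Izumo1 near Fgf21, had a TSS in a window that no nuclease marked. With every region that overlaps another annotated gene left out, 34 of 61 regions were common (55.7%), 7 were DNase I alone and 20 lacked DNase I.

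The regions were searched on both strands for motifs of factors known in this response, with sites of different motifs allowed to overlap. A DR1 element with at most 2 mismatches was found in 17 of the 72 regions (23.6%), against 15.5% of all regions and 17.7% of those of like width (within 10%). With at most 1 mismatch it was found in 2 regions, that at the end of Angptl4 described with that gene and the nearest region downstream of Fgf21, against 2.87% of all regions. The Fgf21 site, in hotspots of all 3 nucleases, is shown in the same way.
Fgf21 downstream, DR1 with 1 mismatch, chr7:52866133-52866161, minus strand: acatttaaAGGTCAGAGGACAacttggag
The glucocorticoid response element with at most 2 mismatches was found in 7 regions (9.72%, like width 6.93%), the forkhead motifs TGTTTAC or TATTTAC in 21 (29.2%, like width 24.1%), the C/EBP motifs TTGCGCAA, TTGCACAA or TTGCATCA in 8 (11.1%, like width 7.45%), and the cyclic AMP response element TGACGTCA in 3 (4.17%, like width 1.81%). The E-box CACGTG was found in 11 (15.3%, like width 15.4%), CCAAT in 52 (72.2%, like width 66.1%) and the GC box GGGCGG in 16 (22.2%, like width 30.4%). These matches describe letters and not binding, and the shares near that of like width are no result about these genes. In the 250 bases before the TSS, 0 of the 8 genes had a DR1 match, against 2.70% of all genes. TTGCATCA and CACGTG occurred at Fgf21 alone among the 8, and 1.72% and 6.53% of all genes had a C/EBP or E-box match there. The forkhead motif occurred at Cyp4a14 alone (all genes 5.31%), CCAAT at 6 (35.0%), and the GC box at Cpt1a, Ehhadh, Fgf21 and Angptl4 (40.1%). The glucocorticoid and cyclic AMP response elements had matches at 0 of the 8 (all genes 1.44% and 1.94%).

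How many hotspots lay close to the bound of 20 kb was not counted, and only the nearest on either side of it are given. With 50 kb to either side the windows held 85 Benzonase, 82 Cyanase and 80 DNase I hotspots. At Fgf21 the bound ran through a DNase I hotspot, which was included. Among Benzonase hotspots, the farthest included lay 17794 bp from the gene and the nearest excluded 20717 bp, both at Angptl4. For Cyanase these distances were 17811 and 20641 bp, again at Angptl4, and for DNase I 19750 and 20428 bp at Fgf21.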

How the data were processed

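Each list gave the mm9 start and end of hotspots as whole numbers, a deposited unit of position that is other than a count or a score. Per the methods, the authors used Eland or Bowtie to align Illumina tags to mm9, and combined the tags of a nuclease (7 samples by the labels: 3 of Benzonase, 3 of Cyanase, 1 of DNase I). The methods give hotspots a false discovery rate of 0% and a threshold of tag density at the mode. The headers of the lists state the false discovery rate and no density threshold. Each list holds more hotspots than the paper reports for that nuclease, and the reason was not tested. By their headers the lists are pooled and corrected for input, and hotspots were not merged. The header of the DNase I list names 2 libraries and the study describes combined replicates, while the labels give 1 sample. Versions and tag length are not given in the sources used here. There were 0 columns of other samples.

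Genes, exons and TSSs came from GENCODE M1 on the mm9 sequence. All hotspots ended within the chromosomes of that sequence except for 2 Cyanase hotspots that end past their chromosome. The nuclease that a sample received, read from the labels, was the group. Windows were the gene body and 20 kb to either side. A gene counted as marked when a TSS of a protein-coding transcript lay inside a hotspot. Unique words were counted over 32 bases on both strands. Intervals are 95% (Wilson for shares, order statistics for medians) and cover counting error only. No test was run, because each nuclease has 1 pooled list. The merging, overlap, motif and word counting steps were tested on simulated data. Scripts ran on Python 3.11.15 with scipy 1.17.1, numba 0.67.0, numpy 2.4.6 and matplotlib 3.10.9.

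The 8 genes, the pathway list of 51, the 22 cell type markers and the motifs were chosen with earlier results of these data known. All 8 genes were named, as were Ppara, every pathway gene not marked by all nucleases, and neighbours whose TSS lies in a window. A further gene that the rule names is not reported here. Promoter sequences came from the mm9 genome rather than a RefSeq table of another build. Alternatives were other windows, overlap rules, width limits, TSS rules and mismatch limits, and 3 chosen after seeing the data (leaving out regions over other genes, regions with under 90% unique words, or the Cyp4a windows).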

Additional observations from a re-analysis of the deposited data

How the results depend on the processing

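Of 89 values under alternatives, 76 stayed within 1.5 times the count or within the interval of the median. With the gene body alone, the windows held 32 Benzonase, 32 Cyanase and 26 DNase I hotspots, 18 common regions and 5 of DNase I alone. With 50 kb to either side they held 80 DNase I hotspots, 62 common regions and 14 of DNase I alone. An overlap of 50% of both hotspots raised the regions of DNase I alone from 9 to 15. In regions with all 3 nucleases, the median Cyanase width was 899 bp instead of 734 bp. Regions with a DR1 match numbered 2 with at most 1 mismatch and 54 with at most 3, which 58.0% of all regions held. Without the Cyp4a windows, chosen after seeing the data, 15 regions lacked DNase I. Counting hotspots within 1 kb of a TSS, DNase I marked 6 of the 8 genes, Cyp4a10 being added. With regions of at least 90% unique words only, 37 of 62 were common (59.7%), 9 DNase I alone (14.5%) and 16 without DNase I (25.8%, against 26.3% of all regions of the genome without this limit).

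No paired analysis was possible because each list pools the tags of a nuclease, and for the same reason leave-one-out values do not exist. Differences between the lists were not set against a spread between animals. Depth per hotspot is unknown, so that a missing hotspot cannot be told apart from a shallow one, and differences in depth, preparation, cell makeup and nuclease were not separated.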
